A study of Mus musculus with 6 samples.

Results

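The genes described here build and run the machinery that separates chromosomes at mitosis: 38 genes of the kinetochore, the spindle, the spindle checkpoint, cytokinesis and the cyclins and kinases that drive division, with the kinesin motor family left out. They were taken by symbol from a count table of 54532 mouse genes and sorted by role into 9 centromere and kinetochore genes, 4 spindle checkpoint genes, 4 genes of the chromosomal passenger complex, 4 of spindle assembly, 4 of anaphase onset, 4 of cytokinesis, 7 cyclins, kinases and their regulators, and 2 genes of the mitotic chromosome. All 38 were in the table and all 38 passed the filter on low counts. The RNA came from MB49, a mouse bladder cancer cell line, and the labels also call the source a tumor. The 2 groups were CRISPR Y-KO, labelled as a knockout of Y, and CRISPR Y-Scr, whose non-targeting guide makes it the control, with 3 libraries each and the same batch label, 1, on all of them. Both groups were sorted for a red fluorescent protein and expanded from single cells according to the labels, which give no guide for Y-KO and do not say whether the libraries of a group were separate clones or separate cultures. The p-values therefore measure the spread between these libraries, which may be technical. The comparison asks how the expression of the division machinery differs between Y-KO and Y-Scr cells.

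During mitosis, each chromosome is held at its centromere by a kinetochore, a layered protein assembly whose outer part grips spindle microtubules. A checkpoint delays anaphase until every kinetochore is attached, after which the anaphase-promoting complex marks cyclin B and securin for destruction and separase opens the cohesin rings. Most of these genes are transcribed in a burst in the G2 phase and in mitosis, under the transcription factors B-MYB and FOXM1, so that their RNA is abundant in dividing cells and low in resting ones. In a bulk sample, a smaller number of dividing cells and less of such RNA per dividing cell cannot be told apart.

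The libraries held between 15698510 and 24633158 counts, and the 38 genes together held between 94431 and 139184 of them. No gene of the 38 had fewer than 314 counts in any library. The Y-linked genes Ddx3y, Eif2s3y, Kdm5d and Uty held 22726 counts over the Y-Scr libraries and 0 over the Y-KO libraries. In the Y-KO libraries 3 counts correspond to between 0.164 and 0.191 CPM (counts scaled to library size), here by library totals alone. Of 15 epithelial and urothelial markers, 5 had a mean of at least 1 CPM, led by the simple-epithelium keratin genes Krt8 and Krt18, while Epcam and Cdh1 had 0 counts in all 6 libraries. The sum of that list was 3360 to 3729 CPM in Y-Scr and 4021 to 4328 CPM in Y-KO. Its genes did not move together. Mean CPM in Y-Scr and Y-KO was 2188.4 and 2816.3 for Krt8, 1326.3 and 1351.4 for Krt18, and 1.42 and 7.53 for Krt19. It was 4.11 and 4.33 for Krt14, and 7.8 and 2.81 for Gata3. Of 14 immune markers, 9, among them Ptprc and Cd3e, had 0 counts, and the summed list, nearly all of it Cd14 (57.4 and 39.0 CPM) and Ly6g (7.12 and 4.07 CPM), ran from 63.6 to 69.4 CPM in Y-Scr and from 41.7 to 46.6 CPM in Y-KO. The 8 fibroblast and pericyte markers summed to 11.8 to 15.9 CPM in Y-Scr and 18.2 to 20.2 CPM in Y-KO. Pdgfra made up most of both sums (8.68 and 14.4 CPM) and was higher in Y-KO without overlap. Dcn (2.07 and 2.47 CPM) and Col1a1 (2.15 and 1.44 CPM) differed in opposite directions, each with overlapping libraries. Pdgfrb had 0 counts. The 5 endothelial markers summed to at most 1.45 CPM in any library. The part of these other markers in the results below was not tested.

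As a group, the mitotic genes were more often higher than lower in Y-KO, by small amounts. Of the 38, 17 rose, 1 fell and 20 did not pass the test (edgeR's quasi-likelihood test with Benjamini-Hochberg adjustment over 12907 tested genes, threshold 0.05). That is 44.7% higher and 2.63% lower, against 20.7% higher and 23.0% lower among all tested genes. The median log2 fold change (Y-KO minus Y-Scr) was 0.12 in the 38 and -0.01 over all tested genes, and single members ranged from -0.30 to 0.75. All 3 Y-KO libraries lay above all 3 Y-Scr libraries for 19 members (50% against 25.4% of all tested genes) and below them for 6 (15.8% against 27.5%). Summed over the 38 genes, expression was 5885 ± 82.3 CPM (SD, n = 3) in Y-Scr and 6674 ± 30.9 CPM (SD, n = 3) in Y-KO, a ratio of 1.13. By size, 6 of the 17 rises were at least 0.5 on the log2 scale, 6 were between 0.25 and 0.5, and 5 were smaller. The members did not move as 1 block: within nearly every role some genes rose and others stayed level or lay slightly lower.

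**Figure D1:**
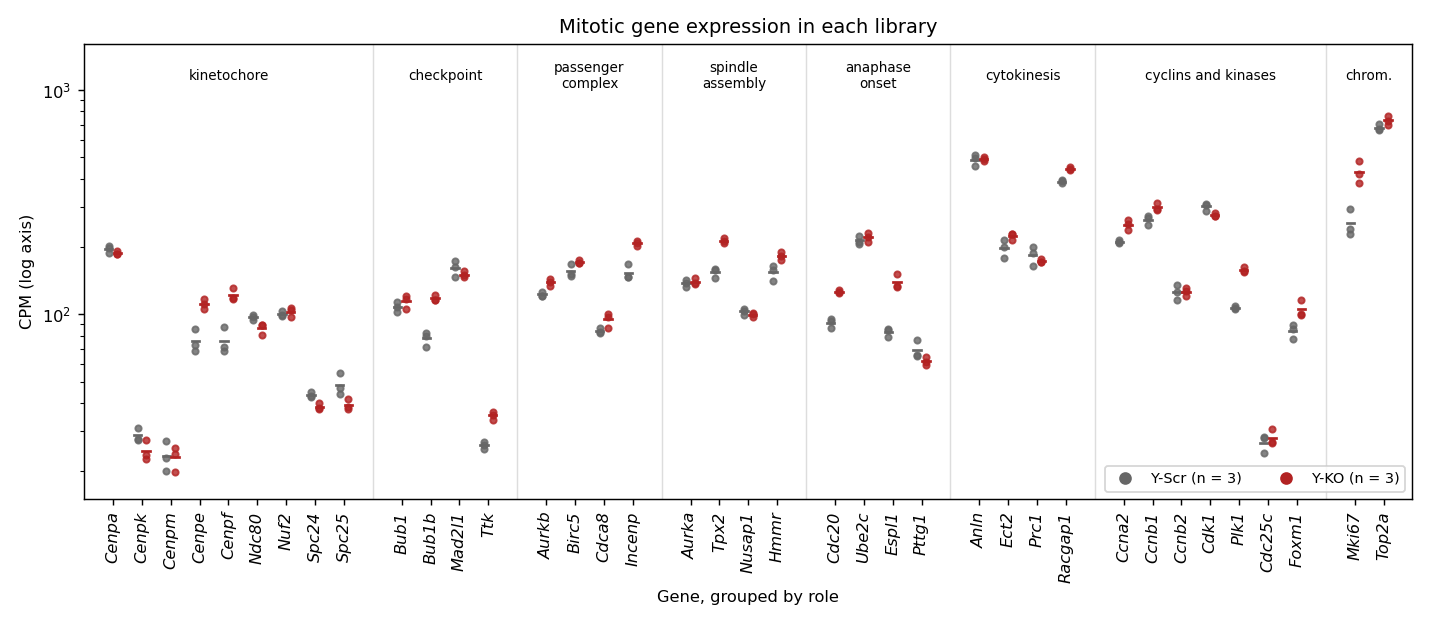
Expression of the 38 mitotic genes in each library (CPM, log axis), grouped by role, with Y-Scr in grey and Y-KO in red. Each point is 1 library and each bar the group mean of 3 libraries. Mki67, Cenpf, Espl1, Bub1b and Plk1 show Y-KO points clear above the Y-Scr points, while Cenpa, Nuf2, Aurka and Anln show mixed points.

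Many promoters of this set carry letters known from cell cycle genes, and 8 of them are shown here because those letters stand in genes that rose and in genes that did not. Of the 38 genes, 31 had a promoter in the RefSeq table (GRCm38.p6), taken as 1 window per gene at the start nearest to the deposited 5′ end of the gene. That start lay within 100 bases of the 5′ end for 26 of the 31, and 2394 bases away for Cdca8. In the 250 bases before the start, the CCAAT box, bound by the factor NF-Y, was searched as CCAAT on both strands (ATTGG on the other strand). It was present in 24 of 31 members, or 77.4%, against 35.2% of 20480 promoters, and at least 2 copies were present in 17 members, or 54.8%, against 11.2%. The cell cycle homology region, the element through which the DREAM and B-MYB complexes hold cell cycle promoters, was searched as TTTGAA or TTCGAA on both strands. It was present in 10 of 31 members, or 32.3%, against 16.6% of all promoters. When the 50 bases after the start were searched as well, it was present in 23 of 31, or 74.2%, against 18.4%. E2F sites, searched as TTTGGCGC, TTTCGCGC, TTTGCCGC or TTTCCCGC on both strands, were present in 2 of 31 (6.45%) against 2.18%. Each motif was counted on its own, whether or not it overlapped another, and a match describes the letters only.

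The CCAAT box was present in 12 of the 12 members that rose and had a promoter in the table, and in 12 of the 19 others; this difference was not tested. The last 120 bases before the start follow, 5′ to 3′ on the gene's own strand, with CCAAT boxes and cell cycle homology regions in capitals. The genes were chosen after their values were seen: Espl1, Cdc20, Mki67, Ttk and Plk1 rose, Cdk1 and Ndc80 did not pass the test, and Spc25 fell.
Espl1 (chr15:102296173-102296292, plus strand): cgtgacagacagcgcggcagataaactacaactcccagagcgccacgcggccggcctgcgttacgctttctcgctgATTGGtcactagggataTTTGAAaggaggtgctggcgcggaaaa
Cdc20 (chr4:118437344-118437463, minus strand): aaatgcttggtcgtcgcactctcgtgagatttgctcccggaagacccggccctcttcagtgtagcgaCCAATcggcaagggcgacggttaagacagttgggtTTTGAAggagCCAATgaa
Mki67 (chr7:135716380-135716499, minus strand): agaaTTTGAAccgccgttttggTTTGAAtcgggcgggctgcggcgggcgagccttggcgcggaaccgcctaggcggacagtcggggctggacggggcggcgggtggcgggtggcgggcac
Ttk (chr9:83834569-83834688, plus strand): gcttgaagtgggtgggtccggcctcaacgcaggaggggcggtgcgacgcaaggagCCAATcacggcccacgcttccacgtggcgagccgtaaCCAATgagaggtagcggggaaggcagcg
Plk1 (chr7:122159315-122159434, plus strand): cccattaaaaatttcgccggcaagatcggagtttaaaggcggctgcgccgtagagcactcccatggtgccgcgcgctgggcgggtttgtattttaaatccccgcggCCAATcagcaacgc
Cdk1 (chr10:69352913-69353032, minus strand): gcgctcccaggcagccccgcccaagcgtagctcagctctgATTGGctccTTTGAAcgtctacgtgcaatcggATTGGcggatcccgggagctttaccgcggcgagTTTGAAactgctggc
Spc25 (chr2:69206214-69206333, minus strand): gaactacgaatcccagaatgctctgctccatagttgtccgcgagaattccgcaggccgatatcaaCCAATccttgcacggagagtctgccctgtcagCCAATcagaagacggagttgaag
Ndc80 (chr17:71526858-71526977, minus strand): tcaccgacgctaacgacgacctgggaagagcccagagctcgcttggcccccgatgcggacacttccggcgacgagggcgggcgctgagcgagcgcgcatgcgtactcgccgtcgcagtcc

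Cdk1, which was not called higher, holds 1 E2F site further upstream and both other kinds of match, with cell cycle homology letters that begin 71 and 15 bases before the start and CCAAT boxes at 208, 80 and 48. Espl1 holds 1 of each, at 27 and 44 bases before the start. Mki67 holds 2 homology matches, at 116 and 98 bases, and its 3 CCAAT boxes lie further upstream than the stretch shown. Spc25, the one member that fell, holds 2 CCAAT boxes, at 55 and 23 bases. Ndc80 holds none of these letters in the 250 bases before its start, which says only that these strings are absent from that window.

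Of the 9 centromere and kinetochore members, 2 rose, 1 fell and 6 did not pass the test, with a median log2 fold change of -0.06. The share that rose, 22.2%, was near the 20.7% of all tested genes, and the share that fell, 11.1%, was below the 23.0%. The 2 that rose encode very large proteins of the outer corona: Cenpf, a microtubule-binding protein that peaks in G2, and Cenpe, a kinesin-like motor that carries chromosomes to the spindle equator and stands among the members by its kinetochore name. Cenpf (ENSMUSG00000026605, chromosome 1, 189640606 to 189688086, GRCm38) stood at 87.9, 68.5 and 71.1 CPM in Y-Scr libraries 1, 2 and 3 and at 116.7, 130.9 and 117.6 CPM in Y-KO. The groups did not overlap, and Cenpf rose by 0.68 ± 0.09 (SE, log2; adjusted p = 4.3e-06, edgeR). Cenpe stood at 85.4, 68.5 and 72.8 CPM in Y-Scr and at 105.8, 117.3 and 110.9 CPM in Y-KO, again without overlap. It rose by 0.56 ± 0.08 (adjusted p = 1.4e-05, edgeR).

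The 4 genes of the NDC80 complex, the rod that couples the kinetochore to microtubules, lay at or below the control level. Spc25, whose product forms the inner end of that rod, stood at 43.9, 54.4 and 46.6 CPM in Y-Scr and at 38.5, 41.6 and 37.9 CPM in Y-KO. All 3 Y-KO values were below all 3 Y-Scr values, and Spc25 fell by 0.30 ± 0.09 (adjusted p = 0.0134, edgeR). Leaving out Y-Scr 2 (-0.20, adjusted p = 0.104), Y-KO 1 (-0.28, 0.0522) or Y-KO 3 (-0.27, 0.0622) ended this call. A fit corrected for length and GC content put it at -0.08 (adjusted p = 0.449), and over all 17 alternatives this was the value nearest 0. Spc24, the partner of Spc25, was at -0.18 ± 0.08 and Ndc80, at the microtubule end, at -0.16 ± 0.07, both with every Y-KO library below every Y-Scr library and neither past the threshold (adjusted p = 0.0921 and 0.0605, edgeR). Ndc80 was called lower among protein-coding genes only and after correction for length, and over 17 alternatives it ranged from -0.25 to -0.10. Nuf2, the partner of Ndc80, was at 0.03 ± 0.07, with overlapping groups.

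None of the 3 centromere genes passed the test. Cenpa, the histone H3 variant that marks the centromere, stood at 194.6 ± 7.38 CPM (SD, n = 3) in Y-Scr and at 186.7 ± 3.08 CPM (SD, n = 3) in Y-KO, a log2 difference of -0.06 ± 0.06 (SE). Cenpm, of the inner centromere network, stood at 19.9, 27.3 and 22.9 CPM in Y-Scr and at 25.4, 19.7 and 23.7 CPM in Y-KO. These ranges overlapped almost wholly, and the log2 difference was -0.02 ± 0.12 (adjusted p = 0.89, edgeR), the largest adjusted p of the kinetochore members. Cenpk, of the same network, was at -0.23 ± 0.10 (adjusted p = 0.0705, edgeR), with every Y-KO library below every Y-Scr library. It was called lower without Y-KO 2 (-0.32, adjusted p = 0.0332) and after correction for length (-0.27, 0.0283), and over 17 alternatives it ranged from -0.32 to 0.01. It overlaps Ppwd1 on the opposite strand, whose counts came to 48.4% of those of Cenpk and which was at -0.06 ± 0.13. The library kit keeps strand, but the strand setting of the counting was not given in the sources here, which leaves counts of overlapping genes uncertain.

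**Figure D2:**
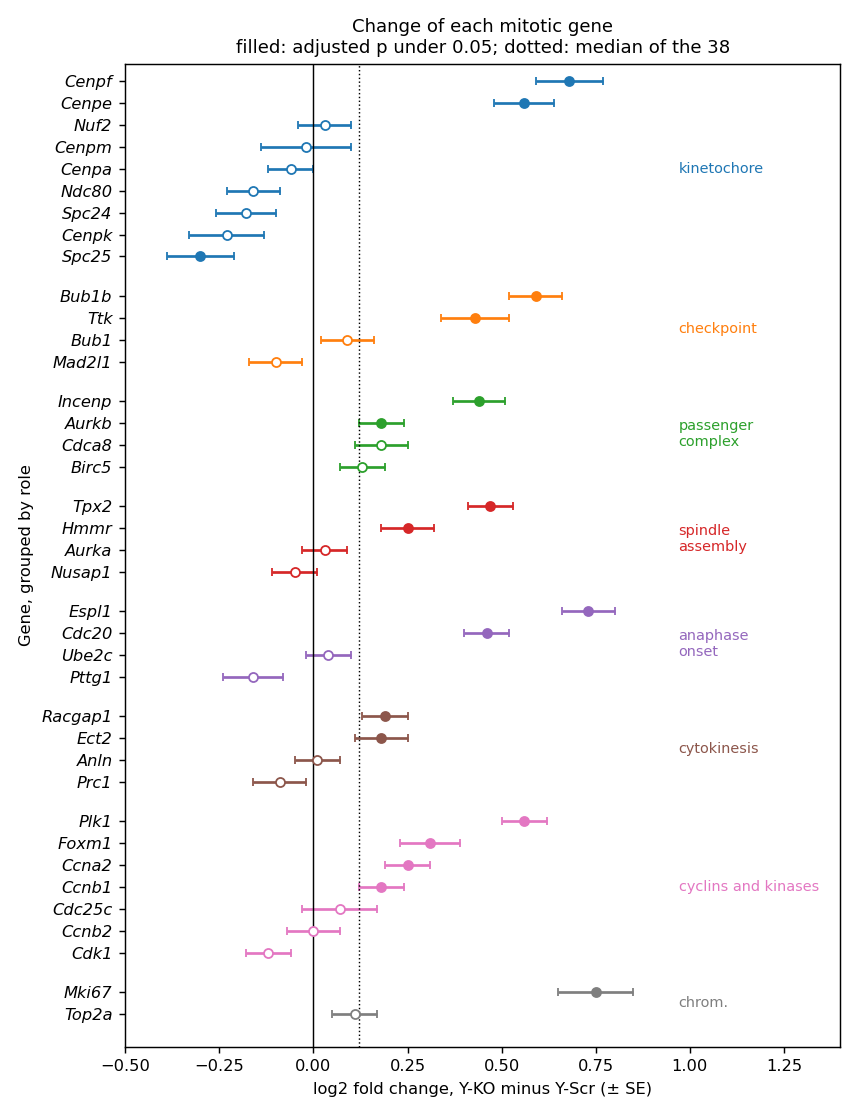
Log2 fold change of each mitotic gene (Y-KO minus Y-Scr, points) with its SE (bars), grouped by role. Filled points passed an adjusted p of 0.05 and the dotted line marks the median of the 38 genes, 0.12. The kinetochore genes span from Spc25 at -0.30 to Cenpf at 0.68, while all 4 passenger complex genes lie right of 0.

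In the spindle checkpoint, 2 of 4 genes rose (50%, against 20.7% of all tested genes). The other 2 did not pass the test, and the median was 0.26. Bub1b encodes BUBR1, a subunit of the complex that inhibits CDC20. It stood at 79.5, 71.5 and 82.6 CPM in Y-Scr and at 115.4, 122.1 and 115.4 CPM in Y-KO. No Y-KO library came near the control range, and Bub1b (chromosome 2, 118598211 to 118641591) rose by 0.59 ± 0.07 (SE; adjusted p = 1.5e-06, edgeR). Ttk, which encodes the MPS1 kinase that starts checkpoint signalling at unattached kinetochores, stood at 26.2, 25.1 and 27.0 CPM in Y-Scr and at 35.6, 36.6 and 33.7 CPM in Y-KO. Its groups were also apart, and it rose by 0.43 ± 0.09 (adjusted p = 6.1e-04, edgeR). Bub1, the kinase that recruits the other checkpoint proteins, stood at 113.1, 107.3 and 101.7 CPM in Y-Scr and at 119.8, 105.1 and 116.8 CPM in Y-KO, an overlap with a difference of 0.09 ± 0.07. Correction for length and GC content made Bub1 called higher, and over 17 alternatives it ranged from 0.05 to 0.26. Mad2l1, which encodes MAD2, the other CDC20 inhibitor, stood at 162.9, 172.0 and 146.5 CPM in Y-Scr and at 148.6, 145.6 and 154.8 CPM in Y-KO. Its groups overlapped too, at -0.10 ± 0.07 (adjusted p = 0.251, edgeR), although without Y-Scr 3 it was called lower (-0.16, adjusted p = 0.04). Correction for length also made Mad2l1 called lower.

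The chromosomal passenger complex corrects faulty attachments and later organises the midzone. It was the one role in which all 3 Y-KO libraries exceeded all 3 Y-Scr libraries for every member, 4 of 4 genes. Among all tested genes this held for 25.4%. By the test, 2 of the 4 rose (50%, against 20.7% of all tested genes). Its scaffold gene Incenp stood at 146.5, 145.7 and 166.7 CPM in Y-Scr and at 207.9, 212.6 and 201.4 CPM in Y-KO. It rose by 0.44 ± 0.07 (SE; adjusted p = 2.8e-05, edgeR), the largest change of the complex. Aurkb, the kinase of the complex, stood at 120.9, 125.3 and 120.8 CPM in Y-Scr and at 139.2, 133.6 and 143.9 CPM in Y-KO. It rose by 0.18 ± 0.06 (adjusted p = 0.0203, edgeR), a call lost without Y-KO 1 (0.18, adjusted p = 0.0694) or Y-KO 3 (0.16, adjusted p = 0.117). The 2 targeting subunits did not pass the test. Cdca8, which encodes borealin, stood at 82.2, 86.3 and 83.4 CPM in Y-Scr and at 97.1, 100.4 and 87.0 CPM in Y-KO, at 0.18 ± 0.07 (adjusted p = 0.0507, edgeR). Birc5, which encodes survivin, stood at 148.1, 151.5 and 166.5 CPM in Y-Scr and at 173.5, 168.3 and 169.2 CPM in Y-KO, at 0.13 ± 0.06 (adjusted p = 0.0992, edgeR). Without Y-Scr 3 Birc5 was called higher (0.19, adjusted p = 0.0178), and so was Cdca8 without Y-KO 3 (0.24, 0.0329). Cdca8 was also called higher with RLE factors (0.18, adjusted p = 0.0413), upper-quartile factors (0.19, 0.0389), library totals (0.23, 0.012) and correction for length and GC content (0.16, 0.0492). Birc5 was called higher with library totals (0.19, 0.0186), correction for length (0.18, 0.0147) and correction for length and GC content (0.24, 0.00148). Over the 17 alternatives Cdca8 ranged from 0.13 to 0.24 and Birc5 from 0.11 to 0.24.

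Among the spindle assembly genes, 2 of 4 rose (50%, against 20.7% of all tested genes) and the other 2 did not pass. Tpx2, which nucleates microtubules around chromosomes and activates Aurora A, stood at 157.7, 144.9 and 158.1 CPM in Y-Scr and at 207.9, 218.4 and 210.9 CPM in Y-KO. The groups were far apart, and Tpx2 (chromosome 2, 152847964 to 152895321) rose by 0.47 ± 0.06 (SE; adjusted p = 6.2e-06, edgeR). Hmmr, which encodes a spindle pole protein that helps place TPX2, stood at 163.2, 156.4 and 141.1 CPM in Y-Scr and at 189.6, 174.6 and 182.2 CPM in Y-KO, and rose by 0.25 ± 0.07 (adjusted p = 0.00525, edgeR). Aurka, the Aurora A kinase gene itself, stood at 132.1, 137.1 and 141.5 CPM in Y-Scr and at 144.1, 136.8 and 137.9 CPM in Y-KO. Its groups overlapped, at 0.03 ± 0.06 (adjusted p = 0.744, edgeR). Nusap1, a microtubule-bundling protein gene, stood at 99.2, 105.5 and 103.6 CPM in Y-Scr and at 100.6, 97.5 and 99.8 CPM in Y-KO, also with overlap, at -0.05 ± 0.06. Nusap1 overlaps the centromere gene Oip5 on the opposite strand, which fell by 0.41 ± 0.10 (adjusted p = 0.00325, edgeR) and held 22.3% of the counts of Nusap1.

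Of the 4 anaphase genes, Espl1 and Cdc20 rose (50%, against 20.7% of all tested genes). Espl1 encodes separase, the protease that cuts cohesin. It stood at 85.7, 79.2 and 84.7 CPM in Y-Scr and at 132.7, 150.4 and 132.0 CPM in Y-KO. With the lowest Y-KO value far above the highest control, Espl1 (ENSMUSG00000058290, chromosome 15, 102296266 to 102324357) rose by 0.73 ± 0.07 (SE), a fold of 1.66, with the smallest adjusted p of the 38 genes (8.8e-08, edgeR). Cdc20, the activator of the anaphase-promoting complex and the target of the checkpoint, stood at 86.6, 92.9 and 95.4 CPM in Y-Scr and at 125.2, 124.1 and 128.0 CPM in Y-KO. Its groups did not overlap and it rose by 0.46 ± 0.06 (adjusted p = 1.3e-05, edgeR). Cdc20 shares its locus with Elovl1 on the opposite strand, which held 58.3% as many counts and was at 0.04 ± 0.07. Ube2c, the ubiquitin-conjugating enzyme of the complex, stood at 206.0, 210.5 and 223.3 CPM in Y-Scr and at 220.5, 210.5 and 228.7 CPM in Y-KO. These values overlapped, at 0.04 ± 0.06 (adjusted p = 0.602, edgeR). Pttg1 encodes securin, the inhibitor of separase. It stood at 65.5, 65.2 and 76.4 CPM in Y-Scr and at 64.1, 61.4 and 59.5 CPM in Y-KO, with every Y-KO library lower, at -0.16 ± 0.08 (adjusted p = 0.105, edgeR).

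The 4 cytokinesis genes lay between -0.09 and 0.19, and 50% rose, against 20.7% of all tested genes. Racgap1 and Ect2, which encode a subunit of centralspindlin and the RhoA activator that it recruits, rose, and Anln and Prc1 did not pass the test. Racgap1 stood at 382.3, 390.4 and 395.6 CPM in Y-Scr and at 454.1, 442.4 and 440.2 CPM in Y-KO, without overlap, and rose by 0.19 ± 0.06 (SE; adjusted p = 0.0112, edgeR). Ect2 stood at 213.1, 199.6 and 178.6 CPM in Y-Scr and at 226.9, 213.2 and 227.3 CPM in Y-KO. Its nearest values almost touched, and it rose by 0.18 ± 0.07 (adjusted p = 0.0438, edgeR). Both calls were fragile. Racgap1 lost it without Y-KO 1 (0.18, adjusted p = 0.0636) and was at 0.12 after correction for length and GC content (adjusted p = 0.0803) and at 0.09 after correction for length alone (0.212). Ect2 kept it without Y-Scr 1 and lost it when any other single library was left out. Its value was 0.19 (adjusted p = 0.0712) when that library was Y-Scr 2, 0.11 (0.172) for Y-Scr 3, 0.16 (0.138) for Y-KO 1, 0.21 (0.0504) for Y-KO 2 and 0.16 (0.147) for Y-KO 3. Anln, the anillin scaffold gene of the contractile ring, stood at 512.7, 496.5 and 456.7 CPM in Y-Scr and at 493.0, 479.0 and 499.3 CPM in Y-KO, a difference of 0.01 ± 0.06 (adjusted p = 0.953, edgeR). Prc1, which bundles the midzone microtubules, stood at 199.6, 186.7 and 164.3 CPM in Y-Scr and at 171.2, 170.8 and 175.9 CPM in Y-KO, at -0.09 ± 0.07 (adjusted p = 0.335, edgeR). Both of these overlapped, and without Y-Scr 3 Prc1 was called lower (-0.16, adjusted p = 0.0376). Correction for length, alone or with GC content, also made Prc1 called lower.

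Among cyclins, kinases and their regulators, 4 of 7 rose (57.1%, against 20.7% of all tested genes) and 3 did not pass. The median was 0.18. Plk1, the Polo kinase gene that acts from mitotic entry to cytokinesis, stood at 105.1, 105.9 and 108.2 CPM in Y-Scr and at 153.3, 162.0 and 155.4 CPM in Y-KO. The groups were far apart with little spread, and Plk1 (ENSMUSG00000030867, chromosome 7, 122159439 to 122169873) rose by 0.56 ± 0.06 (SE; adjusted p = 4.9e-07, edgeR). Foxm1, the transcription factor gene of the G2 programme, stood at 89.1, 77.7 and 86.1 CPM in Y-Scr and at 99.3, 115.3 and 100.3 CPM in Y-KO. It rose by 0.31 ± 0.08 (adjusted p = 0.00223, edgeR), and after correction for length and GC content it was at 0.13 (adjusted p = 0.11). The cyclin genes Ccna2 (0.25 ± 0.06, adjusted p = 0.00261, edgeR) and Ccnb1 (0.18 ± 0.06, adjusted p = 0.0239) rose as well. Ccnb1 lost the call without Y-Scr 3 (0.14, adjusted p = 0.0655), Y-KO 1 (0.20, 0.054) or Y-KO 3 (0.15, 0.137). Ccnb2 encodes the other B-type cyclin expressed in most dividing cells. It stood at 115.7, 126.0 and 134.9 CPM in Y-Scr and at 130.3, 120.9 and 126.9 CPM in Y-KO, with a difference of 0.00 ± 0.07 (adjusted p = 0.966, edgeR). Correction for length, alone or with GC content, made Ccnb2 called higher, and over 17 alternatives it ranged from -0.04 to 0.20. Cdk1, the kinase that these cyclins activate, stood at 288.7, 310.8 and 305.9 CPM in Y-Scr and at 283.1, 274.8 and 274.1 CPM in Y-KO, every Y-KO library lower, at -0.12 ± 0.06 (adjusted p = 0.111, edgeR). With the length trend removed Cdk1 was called lower, and over the alternatives it ranged from -0.15 to -0.06. Cdc25c, the phosphatase gene whose product switches CDK1 on, was at 0.07 ± 0.10. Correction for length and GC content made Cdc25c called higher, and over the alternatives it ranged from 0.01 to 0.33. The pseudogenes Ccnb1-ps and Ccnb2-ps held 1.12% and 0.829% as many counts as their parent genes, so reads exchanged with them could be few.

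Of the 2 mitotic chromosome genes, Mki67 rose (50%, against 20.7% of all tested genes) and Top2a did not pass. Mki67 encodes Ki-67, the coat protein of mitotic chromosomes that pathologists stain to count cycling cells. It stood at 294.7, 227.9 and 240.5 CPM in Y-Scr and at 385.1, 481.6 and 420.3 CPM in Y-KO. The groups did not overlap although both were wide, and Mki67 (ENSMUSG00000031004, chromosome 7, 135689784 to 135716361) rose by 0.75 ± 0.10 (SE; adjusted p = 1.3e-04, edgeR), a fold of 1.69 and the largest change of the 38. Top2a, the topoisomerase gene that untangles sister chromatids and is also used as a proliferation marker, stood at 700.7, 667.4 and 659.5 CPM in Y-Scr and at 724.9, 699.7 and 765.4 CPM in Y-KO. The lowest Y-KO value lay just under the highest control, at 0.11 ± 0.06 (adjusted p = 0.151, edgeR). With library totals only, Top2a was called higher.

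Ratios between partners of a complex are given as a description. The log2 ratio of 2 genes' CPM was taken in each library for 13 pairs chosen after the counts were seen. Most pairs joined a gene that was called with one that was not. Only the difference of a ratio between the groups is read, since the length of each gene, a constant, cancels there. The trend of the change with length, described below, does not cancel. Espl1 is 8.75 kb long and Pttg1 2.0 kb, and the part of length in the ratios was not tested. An exact two-sided permutation test over the 6 libraries cannot give a p under 0.10 here, and 11 pairs reached that value. For those 11 the adjusted p was 0.12 (exact permutation, over the 13). With that floor no pair could pass the threshold, so the test cannot decide whether a ratio differed. Separase over securin (Espl1 over Pttg1) had the largest difference: the log2 ratio was 0.39, 0.28 and 0.15 in Y-Scr and 1.05, 1.29 and 1.15 in Y-KO, a difference of 0.89. The Bub1b over Mad2l1 ratio was -1.04, -1.27 and -0.83 in Y-Scr and -0.37, -0.25 and -0.42 in Y-KO, a difference of 0.69. Tpx2 over Aurka, the activator over its kinase, differed by 0.44, and Ccna2 and Ccnb1 over Cdk1 by 0.37 and 0.30. Incenp over Aurkb, Birc5 and Cdca8 differed by 0.26, 0.31 and 0.27. In each of these the Y-KO libraries all lay above the Y-Scr libraries. Ratios that overlapped between the groups were Racgap1 over Ect2, with a difference of 0.02 (exact permutation p = 0.90), and Spc24 over Spc25, with 0.12 (exact permutation p = 0.40). Within the NDC80 rod the Y-KO libraries lay below control for Ndc80 over Nuf2 (-0.19) and for Spc25 over Nuf2 (-0.32).

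**Figure D3:**
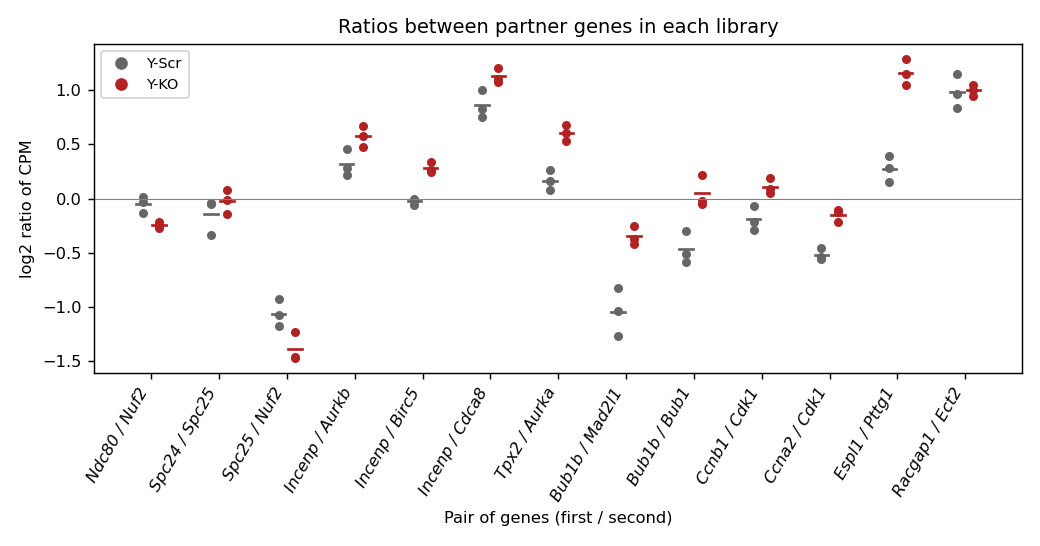
Log2 ratio of CPM between partner genes in each library, Y-Scr in grey and Y-KO in red, with each point 1 library and each bar a group mean of 3. The ratios over Pttg1, Mad2l1, Aurka and Cdk1 are higher in Y-KO without overlap, while Racgap1 over Ect2 overlaps, with means of 0.99 and 1.00.

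Compared per length, as CPM per kilobase of the deposited gene, Ube2c, Ccnb2 and Top2a were the most abundant members in both groups, at 82, 82 and 75 in Y-Scr and 84.6, 82.3 and 81 in Y-KO. Cenpf, Ttk and Cenpk were the least abundant in Y-Scr, at 4.92, 5.31 and 5.5. Of the 6 members that rose by at least 0.5 on the log2 scale, Cenpf, Cenpe (8.77) and Espl1 (9.51) started low in CPM per kilobase. The others, Bub1b (18.2), Mki67 (25.3) and Plk1 (48.4), started higher. Plk1 went from 48.4 to 71.4 and thereby from rank 11 to rank 4 of the 38, and Cdk1 from 61.2 to 56.2, from rank 5 to rank 10.

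The libraries of a group did not share 1 order over the members. Among the Y-KO libraries, Y-KO 1 was the highest for 15 members, Y-KO 2 for 13 and Y-KO 3 for 10, while Y-KO 2 was the lowest for 21. Y-KO 2 thus held the top value of all 6 libraries for 11 genes, among them Mki67, Cenpf, Espl1, Foxm1, Plk1 and Bub1b, and the lowest Y-KO value for genes such as Bub1, Nuf2 and Ndc80. Among the Y-Scr libraries, the highest value fell to library 1 for 12 members, to library 2 for 11 and to library 3 for 15. The median member, relative to its mean over all libraries, was at -0.07, -0.05 and -0.09 on the log2 scale in Y-Scr 1, 2 and 3 and at 0.09, 0.03 and 0.08 in Y-KO, so every Y-KO library was above every Y-Scr library.

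Over all tested genes the change rose with gene length. Among the members the correlation had the same sign and was not tested. Over 38 members Spearman's rho between log2 fold change and deposited gene length was 0.21, and with the GC content of the longest transcript 0.31. Over all 12907 tested genes the values were 0.23 and, for the 12897 with a GC content, 0.17. The points share the same libraries, and the genes are not independent. With the tested genes cut into 5 classes of length, the median change in class 1 (up to 1.95 kb) was -0.14 and 5.57% were called higher, against 1 of 4 members, Cdc20. In class 5 (over 7.09 kb) the median was 0.14 and 38.1% were called higher, against 4 of 8 members, namely Cenpe, Cenpf, Espl1 and Mki67. In the 3 classes between, 3 of 8, 4 of 7 and 5 of 11 members rose, against 12.7%, 20.2% and 26.7% of all tested genes. After correction of each library for length, 17 members were higher and 6 lower, and after correction for length and GC content 20 were higher and 1 lower, at a median of 0.18. The part of length in these changes was not tested further.

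**Figure D4:**
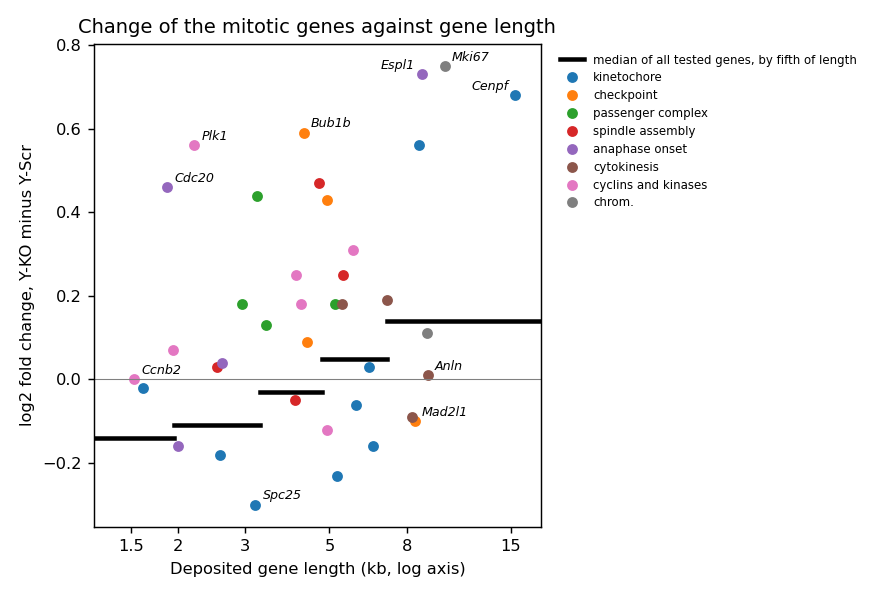
Log2 fold change of each mitotic gene (points, coloured by role) against its deposited length in kb (log axis), with the median of all tested genes in each of 5 length classes as black bars. The bars climb from -0.14 to 0.14. Members lie on both sides of the bars, from Spc25 at -0.30 to Mki67 at 0.75.

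Genes beside the members on their chromosomes were read in the same way. For each member the median log2 fold change of 50 neighbouring tested genes, taken evenly from both sides, was computed (46 genes for Espl1), with the 38 members left out. These medians ranged from -0.18 to 0.17 with a middle value of 0.01, and 24 of the 38 members lay above the median of their own neighbours. The neighbours of Mki67 were at -0.17, those of Foxm1 at -0.18 and those of Cenpe at -0.10. The highest neighbour medians were those around Espl1 (0.17), Racgap1 (0.15) and Plk1 (0.15). With 20 neighbours the highest were those around Bub1b and Racgap1, both 0.23, which for Racgap1 is above its own 0.19, and that around Plk1, 0.19. Over the 38 members Spearman's rho between a member and its neighbours was -0.01.

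The wider pathway was read from 148 further genes in 7 lists, of which 147 were tested. Of these, 59 rose, 21 fell and 67 did not pass, with a median of 0.11. That is 40.1% higher and 14.3% lower, against 20.7% and 23.0% of all tested genes. By share, spindle and centrosome genes (69%) and cohesin and condensin genes (66.7%) were higher most often. Of 29 other spindle and centrosome genes, 20 rose and 4 fell, or 69% and 13.8%, with a median of 0.28. After correction for length and GC content 15 were higher and the median was 0.18. Pcnt, the pericentrin gene of the centrosome, rose by 0.79 ± 0.09 (SE), Aspm, of the spindle pole, by 0.70 ± 0.09, Numa1, which anchors the pole and pulls on it, by 0.64 ± 0.07 and Spag5, which encodes astrin, by 0.53 ± 0.06 (adjusted p between 1.1e-06 and 3.0e-06, edgeR). Haus1 and Haus3, of the augmin complex, fell by 0.39 ± 0.09 and 0.25 ± 0.09, Knstrn by 0.20 ± 0.06 and the centriole kinase gene Plk4 by 0.20 ± 0.07. Other augmin genes, named after their values were seen, rose: Haus4 by 0.64 ± 0.09, Haus8 by 0.52 ± 0.09 and Haus6 by 0.38 ± 0.09. Haus2, Haus5 and Haus7 did not pass the test, at -0.22 ± 0.10, -0.28 ± 0.21 and -0.24 ± 0.10. Leaving out Y-Scr 3 made Haus2 (-0.30, adjusted p = 0.0126) and Haus7 (-0.30, 0.0344) called lower, and leaving out Y-Scr 1 did so for Haus7 (-0.29, 0.0416).

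Of 18 cohesin and condensin genes, 12 rose and 2 fell, with a median of 0.27. The shares were 66.7% and 11.1%, against 20.7% and 23.0% of all tested genes. After correction for length, 8 were higher and the median was 0.12, while after correction for length and GC content 15 were higher and it was 0.24. The condensin genes Ncapd2 and Smc2 rose by 0.59 ± 0.07 (SE) and 0.44 ± 0.06, and the cohesin genes Smc3 and Smc1a by 0.48 ± 0.07 and 0.45 ± 0.07. Smc4, the partner of Smc2 in condensin, fell by 0.17 ± 0.06, and Ncaph2 fell by 0.19 ± 0.07. Of 27 other centromere and kinetochore genes, 4 rose and 5 fell, or 14.8% and 18.5%, both under the shares of all tested genes. Cenpb (0.43 ± 0.06), which binds centromeric repeats, Mis12 (0.41 ± 0.09) and Knl1 (0.31 ± 0.08), of the outer kinetochore scaffold, and the CENP-A chaperone gene Hjurp (0.19 ± 0.06) rose. Ska1, whose product tracks microtubule ends, fell by 0.53 ± 0.09, Oip5 by 0.41 ± 0.10, Cenpq by 0.33 ± 0.10 and Zwint by 0.24 ± 0.06. The 11 checkpoint and centromere guard genes had 18.2% higher and 18.2% lower, both likewise under those shares. Here 2 rose, Mad1l1 (0.36 ± 0.07) and Sgo2a (0.29 ± 0.11), and 2 fell, Sgo1 (-0.38 ± 0.07), the shugoshin gene that protects cohesion in mitosis, and Trip13 (-0.19 ± 0.07), whose product takes MAD2 complexes apart.

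Of 17 genes of the anaphase-promoting complex and its regulators, 5 rose and 1 fell, or 29.4% and 5.88%, with a median of 0.09. After correction for length 5 were higher and 4 lower, at a median of 0.01. With GC content as well, 3 were higher and 2 lower, at 0.07. Anapc1 rose by 0.39 ± 0.07 (SE), the inhibitor gene Fbxo5 by 0.32 ± 0.08, Anapc5 by 0.29 ± 0.06 and the late activator gene Fzr1 by 0.26 ± 0.07, while Anapc16 fell by 0.51 ± 0.09. Of 17 other cytokinesis genes, 6 rose and 3 fell, or 35.3% and 17.6%. Among all tested genes these shares were 20.7% and 23.0%. The median of the cytokinesis list was 0.09, and 0.01 after correction for length, with 5 higher and 3 lower. With GC content as well it was 0.03, with 6 higher and 3 lower. The myosin II genes Myh10 and Myh9 rose by 0.88 ± 0.10 and 0.44 ± 0.07, the citron kinase gene Cit by 0.67 ± 0.10 and Arhgap11a by 0.53 ± 0.08. Rhoa, the GTPase of the contractile ring, fell by 0.32 ± 0.07, the septin gene Sept7 by 0.33 ± 0.08 and the abscission gene Tsg101 by 0.60 ± 0.06.

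The regulators of mitotic transcription and of CDK1 held the largest rise and the largest fall of the 147. Of 28 tested, 10 rose and 4 fell, with a median of 0.12. The shares were 35.7% and 14.3%, against 20.7% and 23.0% of all tested genes. Mybl2, which encodes B-MYB, went from 43.3 ± 3.9 CPM (SD, n = 3) in Y-Scr to 87.5 ± 3 CPM (SD, n = 3) in Y-KO, a rise of 1.01 ± 0.08 (SE; adjusted p = 7.2e-09, edgeR). The phosphatase gene Cdc25a rose by 0.80 ± 0.09, the repressor gene E2f8 by 0.75 ± 0.08 and Ccnf, which encodes cyclin F, by 0.62 ± 0.07. Ensa, whose product shields CDK1 substrates from the phosphatase PP2A, fell from 307.3 ± 25.1 CPM (SD, n = 3) to 142.7 ± 11 CPM (SD, n = 3), by 1.11 ± 0.07 (SE; adjusted p = 4.3e-10, edgeR). Ensa lies on chromosome 3 (95624993 to 95632102), and its neighbours, like those of the other further genes, were not examined. Cdkn3 (-0.34 ± 0.09), E2f5 (-0.29 ± 0.11) and Rbbp4 (-0.18 ± 0.07) also fell.

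By the naming rule given below, 46 genes were taken from these lists, without Haus2, Haus4, Haus5, Haus6, Haus7 and Haus8. Of the 46, 27 were called in the same direction under all 17 alternatives, among them Mybl2, Ensa, Pcnt, Numa1, Aspm, Ncapd2, Myh10 and Tsg101. Leaving out a single library ended the call of 12: Knl1, Hjurp, Cenpq, Sgo2a, Trip13, Knstrn, Plk4, Haus3, Ncaph2, Smc4, Rbbp4 and E2f5. Trip13 lost its call most often, under 13 of the 17 alternatives, and was at -0.11 (adjusted p = 0.252) when Y-Scr 2 was left out. Haus3 was at 0.11 (adjusted p = 0.302) after correction for length and GC content, opposite to its value of -0.25.

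**Figure D5:**
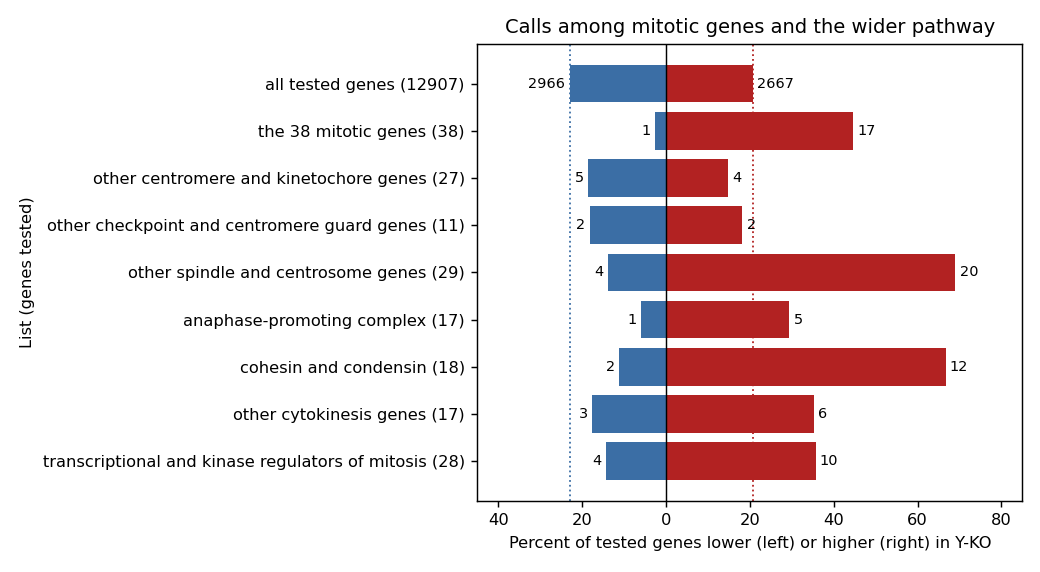
Percent of tested genes called higher (right, red) or lower (left, blue) in Y-KO at an adjusted p of 0.05, for all tested genes, the 38 mitotic genes and the 7 further lists, with the number of genes at each bar. Dotted lines mark the shares among all tested genes, 20.7% and 23.0%. The mitotic genes have 17 higher and 1 lower, and the spindle and centrosome list 20 higher and 4 lower.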

How the data were processed

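The authors deposited raw read counts per gene (whole numbers, 1 column per library, replicates not pooled) with gene lengths. The submitters' processing notes list STAR 2.5.2b and featureCounts 1.5.3 among the tools and name the builds GRCm39 and mm39. The deposited coordinates matched the GENCODE M21 annotation of GRCm38 for 98.3% of 54495 shared genes and 36 of the 38 members, so they are given as GRCm38. Groups were compared with edgeR 4.0.16 under R 4.3.3. After filterByExpr, 12907 genes remained; TMM factors scaled the libraries, and a quasi-likelihood model of group (robust) gave p-values adjusted by Benjamini-Hochberg. CPM uses the TMM-scaled library sizes. Libraries held 15698510 to 24633158 counts, at which 3 counts are 0.122 to 0.191 CPM by library totals alone, without the TMM factors. No 2 libraries of a group were alike within counting error, with chi-square values of 3.55 to 16 per degree of freedom. Members and lists were chosen with earlier results of these data known. The naming rule took, in each role, the 2 members with the smallest adjusted p and the 1 with the largest in every library (all members of roles of 4 or fewer), and in each further list up to 4 genes with the smallest adjusted p in each direction; other members are named for completeness. For 3 septin genes the table held a date in place of the symbol, and they were matched by gene ID.

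Alternatives were other scaling factors, other filters, DESeq2 1.42.0, limma-voom (limma 3.58.1), protein-coding genes, a replicate block, leaving out every library once, and offsets that remove each library's trend on length, or length and GC content (natural splines, 4 degrees of freedom). In counts simulated over 12726 genes, 195 genes were given a change. There 34.8% of 1.25-fold, 61.5% of 1.5-fold and 87.5% of 2-fold changes were recovered, and 9.8% of calls were false. In the data 2667 genes were called higher and 2966 lower, far more than were changed in the simulation. The simulated rates therefore need not hold for this comparison. The length offset was tested on simulated data, and the fit with GC content was not.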

Additional observations from a re-analysis of the deposited data

How the results depend on the processing

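Over 17 alternative fits, 12 of the 17 rises kept their direction and their side of the threshold; the other 5 (Aurkb, Ect2, Racgap1, Ccnb1 and Foxm1) kept their direction. The number of members called higher was 13 to 20. With library totals only, the median was 0.18 for the members, 0.17 for the 147 further genes, of which 12 were lower, and 0.05 for all tested genes, which is the shift that this scaling makes. Members called lower were 2 among protein-coding genes alone, 6 with the length trend removed and 0 to 3 when single libraries were left out. Further genes called lower were 11 to 24 when single libraries were left out, and 12 with length and GC content removed, where the member median was 0.18 and the spindle gene Haus3 reversed to 0.11. The causes were not tested. The cell cycle homology letters were present in 74.2% of member promoters with the 50 bases after the start included, a window chosen after the data were seen.

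Same-numbered libraries did not deviate together (correlations of -0.064, -0.034 and -0.024 over genes). This cannot decide whether equal numbers share a culture or day, which the labels do not say. With the replicate block, 13 members were higher and 1 lower, and 12 further genes were lower.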
